A study of Mus musculus with 30 samples.

Results

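RNA of interscapular brown adipose tissue (iBAT) from 5 LFABP-/- and 5 WT mice was compared, which used 10 of the 30 libraries of the study and every library whose name gives iBAT as the tissue. All mice were males on a C57Bl/6J background, started at 2 months of age on a high-fat diet (HFD) with 45 kcal % of fat, were kept on it for 12 weeks and were fasted for 4 h before tissue collection. The LFABP-/- mice lack liver fatty acid-binding protein (LFABP, gene Fabp1) in the whole body, and the WT mice carry the intact gene. The remaining libraries are liver and inguinal white adipose tissue (iWAT) of the same 10 mice, so each genotype is represented by 5 animals and each animal by 1 iBAT library.

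LFABP is a small intracellular carrier of long-chain fatty acids, bile acids and other lipids that is made in hepatocytes and in the absorptive cells of the small intestine. Brown adipocytes do not normally make it and use the related carriers FABP3, FABP4 and FABP5. Brown fat burns fatty acids and glucose and releases the energy as heat through uncoupling protein 1 (UCP1) in the inner mitochondrial membrane, and it responds to sympathetic nerves, thyroid hormone, insulin, glucocorticoids and the light-dark cycle.

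Values are on the TPM scale, where the value of a transcript is corrected for its length and all values of a library have 1 fixed sum, and values given for single libraries follow the order of replicates 1 to 5. Differences are given as log2 fold change ± standard error, LFABP-/- minus WT, on log2(value + 0.5), which understates the change of low genes. Calls were made where limma gave an adjusted p below 0.1. The number of reads behind each value is unknown, and errors therefore come from the variation among the mice. The 10 libraries held 16811 to 17680 genes above 0, and mitochondrially encoded genes took 53.3 to 60.1% of the value. Ucp1 stood between 4243.4 and 7684.1 in all 10 libraries and the transcript that defines brown fat was thus abundant in each.

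Liver transcripts were examined first. All 44 hepatocyte markers tested were higher in LFABP-/- iBAT, with a median log2 fold change of 3.40, where 22.3% of all genes tested were higher. Albumin (Alb), the main plasma protein made by the liver, was 36.0, 1.9, 2.1, 23.5 and 49.6 in WT and 637.9, 914.5, 863.9, 152.2 and 95.2 in LFABP-/- iBAT. Every LFABP-/- library was above every WT library, and replicates 1 to 3 were far above replicates 4 and 5. The median level of the markers in iBAT, as a percentage of the level in the liver of the same mouse, was 0.0656, 0.00251, 0.00519, 0.0409 and 0.0982% in WT and 1.27, 1.91, 1.49, 0.289 and 0.177% in LFABP-/- mice. This percentage is called the liver share below. The summed level of the whole marker list was 729.4 to 934.5 in WT and 1105 to 4855 in LFABP-/- libraries. None of its 48 genes was at 0 in every library. Subtracting each library's liver share of its own liver profile left 6 hepatocyte markers higher and 1 lower. The share was computed from these same markers, so this count is no test of where the transcripts came from.

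Skeletal muscle markers varied more within the genotypes than between them. Their mean log2 level was 4.81, 5.86, 6.89, 7.82 and 7.81 in WT and 4.74, 5.80, 6.18, 2.41 and 7.15 in LFABP-/- iBAT, so the groups overlapped, with LFABP-/- replicate 4 the lowest. Of 34 muscle markers tested, 0 were higher and 6 lower, beside 25.5% lower among all genes. The summed macrophage markers ranged from 120.4 to 225.5 in WT and from 99.4 to 222.8 in LFABP-/- libraries. Summed endothelial markers ranged from 716.8 to 893.4 and from 688.5 to 1014, and smooth muscle and pericyte markers from 245.6 to 716.3 and from 173.2 to 412. The part of the liver and muscle transcripts in the results below was not tested beyond the values given. For that reason the counts of gene groups are also given without LFABP-/- replicates 1 to 3, which leaves 5 WT against 2 LFABP-/- mice. Over all genes that fit called 1002 of 11559 higher and 1863 lower, against 2595 and 2961 of 11614 with all libraries. Counts of gene groups in it are to be read beside those lower totals.

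**Figure D1:**
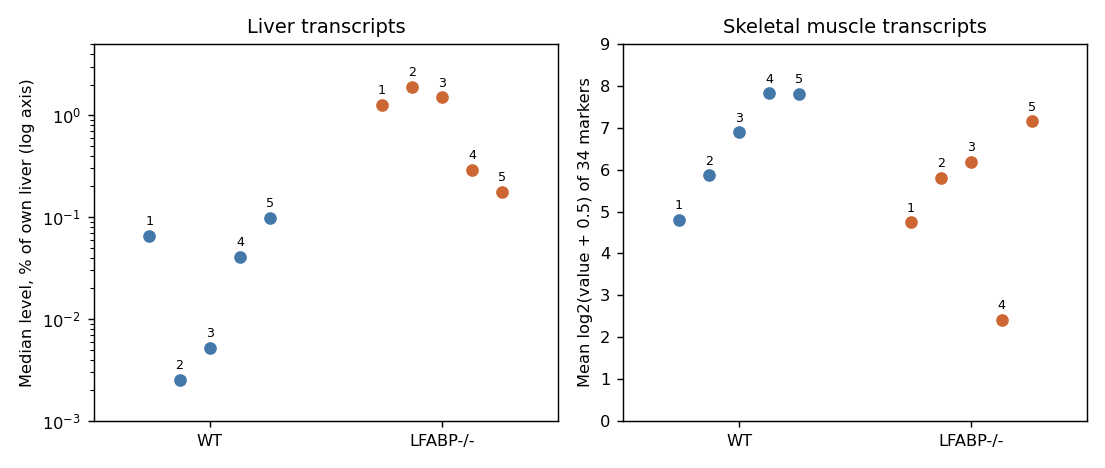
Liver share of each iBAT library (left, percent, log axis) and mean log2 level of 34 skeletal muscle markers (right), each point 1 library of WT or LFABP-/- mice. The LFABP-/- libraries lie at 0.177 to 1.91% on the left, above the highest WT library at 0.0982%, and the genotypes overlap on the right.

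Fabp1, the deleted gene, was 1.4, 0.2, 0.4, 5.1 and 8.7 in WT and 0.4, 2.0, 21.2, 15.0 and 13.1 in the iBAT libraries labelled LFABP-/-. In the livers of the same LFABP-/- mice it was 51.8, 13.7, 0.3, 0.6 and 0.2, whereas WT livers held 9165.5 to 12697.6. The liver libraries therefore separated the genotypes as labelled, and the iBAT libraries did not (1.48 ± 1.01, adjusted p = 0.276). In replicates 3 to 5 the iBAT value of Fabp1 exceeded that of the mouse's own liver. The iBAT values of the deleted gene thus did not follow the labels, and LFABP-/- iBAT below means the libraries so labelled. Nnt, the mitochondrial transhydrogenase that is partly deleted in C57BL/6J mice, was 0.6, 0.6, 1.5, 1.8 and 1.4 in WT and 1.9, 3.0, 3.3, 0.8 and 5.3 in LFABP-/- iBAT (0.90 ± 0.38, adjusted p = 0.0863). Among other settings, the call for Nnt ended after subtraction of the liver share (0.68, adjusted p = 0.197) and without LFABP-/- replicates 1 to 3 (0.78, adjusted p = 0.402), and it held in the joint fit of the 3 tissues (adjusted p = 0.0151). In the same mice Nnt was also higher in liver, at 12.9 to 25.9 in WT and 35.4 to 44.9 in LFABP-/- (1.13 ± 0.27, adjusted p = 0.0127), and in iWAT, at 5.5 to 7.9 and 11.4 to 17.2 (1.11 ± 0.27, adjusted p = 0.0161), without overlap in either tissue. Within 5 Mb of Fabp1, 38 genes were tested, of which 12 were higher (31.6%) and 7 lower (18.4%), beside 22.3% and 25.5% of all genes.

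Of 11614 genes tested, 2595 (22.3%) were higher and 2961 (25.5%) lower in LFABP-/- iBAT, so that 5556 (47.8%) were called. Most differences were small. The median absolute log2 fold change of called genes was 0.41, and 3922 called genes (70.6%) differed by less than 1.5-fold. A fold of at least 2 was reached by 398 higher and 202 lower genes. In 3065 genes (26.4%) the 5 values of one genotype did not overlap the 5 of the other. The first principal component held 51.4% of the variance and placed the WT libraries between 0.117 and 0.384, LFABP-/- replicates 1 to 4 between -0.419 and -0.3, and LFABP-/- replicate 5 at 0.0146. Without LFABP-/- replicates 1 to 3, 1002 of 11559 genes were higher and 1863 lower. Library names carry the prefix G30 or G32, of unstated meaning, and both genotypes have both. Within G30 (3 WT and 2 LFABP-/-) 2602 of 11650 genes were higher and 1908 lower. Within G32 (2 WT and 3 LFABP-/-) 985 of 11578 genes were higher and 1899 lower. The iBAT libraries are numbered 6 to 10 for WT and 21 to 25 for LFABP-/-, so genotype and the order of the libraries cannot be told apart.

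The largest increases by name were mainly liver transcripts. Of the 15 genes with the largest rise, a group mean above 20 and no overlap, 13 had a liver part of 50% or more, which is the liver share multiplied by the liver level and set against the iBAT level. Examples are Alb, the major urinary protein genes Mup19, Mup7, Mup3, Mup20, Mup22 and Mup17, the apolipoprotein gene Apoa1, the fetuin gene Ahsg and the vitamin D-binding protein gene Gc. By this measure such genes were few across the transcriptome. Of the 2595 higher genes, 189 had a liver part of 50% or more and 2342 had one under 10%. The liver part is a share of the level and not of the rise, so a low part can be much of a small rise. After subtraction of the liver share, 2282 of 11418 genes were higher and 3188 lower, against 2595 and 2961 of 11614 before it.

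The marker genes of this comparison, Ucp1, Npr3, Hk1, Acsl5 and Cfd, had liver parts of at most 1.05%. Ucp1 was 5387.3, 5521.7, 4499.4, 4243.4 and 4320.0 in WT and 6781.5, 7684.1, 6590.2, 6790.7 and 5877.5 in LFABP-/- iBAT. The groups did not overlap, and the rise was 1.41-fold (0.50 ± 0.10, adjusted p = 0.00323). Npr3, the receptor that clears natriuretic peptides from the circulation, was 13.9, 8.5, 11.4, 12.0 and 6.3 in WT and 83.5, 83.3, 84.7, 105.8 and 77.7 in LFABP-/- iBAT, an 8.24-fold rise (3.04 ± 0.19, adjusted p = 2.05e-05). Hk1, the hexokinase that commits glucose to metabolism in most tissues, was 12.8, 11.9, 11.7, 11.2 and 8.7 in WT and 44.1, 44.9, 38.5, 46.5 and 37.0 in LFABP-/- iBAT, a 3.64-fold rise (1.87 ± 0.11, adjusted p = 1.25e-05). Neither gene had an LFABP-/- library near the WT range, and on GRCm38 they lie in chr15:11839896-11907287 and chr10:62268855-62379908. Acsl5, an acyl-CoA synthetase that activates fatty acids, was 69.3, 75.3, 60.6, 51.7 and 53.5 in WT and 220.9, 286.8, 202.5, 155.8 and 215.2 in LFABP-/- iBAT, a 3.43-fold rise (1.78 ± 0.16, adjusted p = 7.88e-05). Cfd, which encodes the complement protease and adipokine adipsin, was 698.4, 1020.8, 1141.2, 1060.1 and 1607.4 in WT and 60.1, 80.8, 103.8, 114.4 and 103.2 in LFABP-/- iBAT, 11.8-fold lower (-3.56 ± 0.23, adjusted p = 2.61e-05). Npr3, Hk1, Acsl5 and Cfd kept their calls and directions in all 30 settings examined, with log2 fold changes of 2.86 to 3.27, 1.75 to 1.98, 1.57 to 1.89 and -3.73 to -3.22. The call for Ucp1 ended in the fit of all 30 libraries (0.50 ± 0.92, adjusted p = 0.793) and with the hepatocyte markers as a covariate (0.38, adjusted p = 0.331). Within G30 its log2 fold change was 0.50 and within G32 0.58. The joint fit of the 3 tissues uses 1 variance per gene for all of them. Its iBAT estimates equal those from iBAT alone, and its errors also take in the spread in liver and iWAT. A call that ends in the joint fit can therefore rest on spread outside iBAT.

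**Figure D2:**
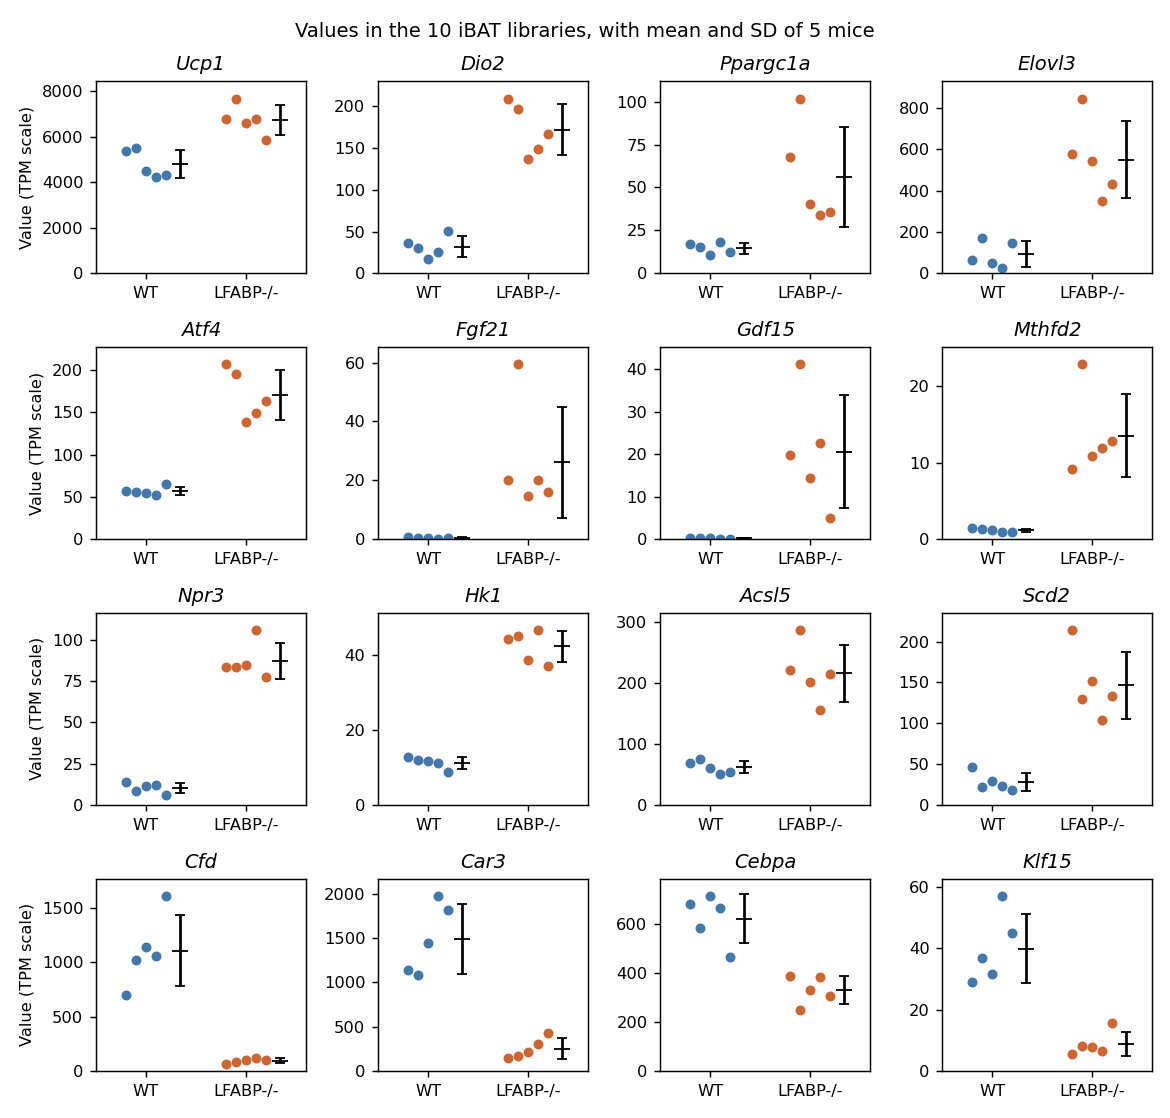
Values (TPM scale, linear axes from 0) of marker, thermogenic, stress and adipocyte genes in the 10 iBAT libraries, with 1 point per library and the mean ± SD of each genotype. Ucp1 rises from 4794 ± 612 to 6745 ± 645, Npr3 from 10.4 ± 3.01 to 87.0 ± 10.8, and Cfd falls from 1106 ± 327 to 92.5 ± 21.8, without overlap.

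Genes of heat production moved in both directions. Of 29 genes of brown identity and thermogenesis tested, 11 (37.9%) were higher and 6 (20.7%) lower, beside 22.3% and 25.5% of all genes. Their median log2 fold change was 0.06, beside -0.03 for all genes. Dio2, the deiodinase that activates thyroid hormone inside the brown adipocyte, was 36.6, 29.9, 16.8, 25.3 and 50.8 in WT and 209.3, 196.2, 137.3, 148.6 and 167.3 in LFABP-/- iBAT, a 5.60-fold rise (2.49 ± 0.26, adjusted p = 0.000143). Elovl3, a fatty acid elongase induced in active brown fat, was 63.4, 171.9, 51.9, 27.2 and 145.8 in WT and 577.5, 844.9, 541.7, 352.0 and 432.7 in LFABP-/- iBAT, a 7.04-fold rise (2.82 ± 0.47, adjusted p = 0.00145). Ppargc1a, the coactivator that drives mitochondrial biogenesis, was 17, 15.2, 10.5, 18.1 and 12.6 in WT and 67.9, 101.8, 40.6, 34.2 and 35.5 in LFABP-/- iBAT, a 3.45-fold rise (1.79 ± 0.30, adjusted p = 0.00142). In none of these did the genotypes overlap. Acot11, a thioesterase of brown fat, rose by 0.90 ± 0.16 on the log2 scale, Bmp8b, a secreted factor of brown adipocytes, by 1.33 ± 0.32, and Letmd1, a mitochondrial protein needed for thermogenesis, by 0.46 ± 0.12. Bmp8b was low, at 0.2 to 0.6 in WT and 1.1 to 4.4 in LFABP-/- iBAT, near the added 0.5. Of the 11 transcription regulators of this list tested, 2 were higher (Ppargc1a and Esrra), 4 were lower and 5 were not called. The lower ones included Prdm16 (-0.57 ± 0.13) and Ebf2 (-0.75 ± 0.14), which set brown identity, and Irf4 (-1.37 ± 0.42), which links adrenergic signals to the thermogenic genes. The calls for Irf4 and Letmd1 ended without LFABP-/- replicates 1 to 3 and within G32, that for Ebf2 within G32, and that for Acot11 in the joint fit of the 3 tissues. The β3-adrenergic receptor gene Adrb3, at 191 ± 31.6 in WT and 198 ± 27.4 (SD, n = 5) in LFABP-/- iBAT, was not called (0.06 ± 0.13, adjusted p = 0.727). Without LFABP-/- replicates 1 to 3, 6 genes of the list were higher and 4 lower.

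Targets of ATF4, the transcription factor of the integrated stress response, rose together. ATF4 is translated when cells sense a shortage of amino acids or mitochondrial stress, and it switches on amino acid synthesis and transport and the secreted factors FGF21 and GDF15. Of 21 ATF4 targets tested, 16 (76.2%) were higher and 1 (4.76%) lower, beside 22.3% and 25.5% of all genes. Their median log2 fold change was 0.93. Fgf21, a hormone that acts on fat and brain, was 0.7, 0.4, 0.4, 0.1 and 0.3 in WT and 20.2, 59.4, 14.7, 20 and 16.2 in LFABP-/- iBAT (4.74 ± 0.35, adjusted p = 3.46e-05). Gdf15, a hormone that lowers food intake, was 0.4, 0.2, 0.4, 0.0 and 0.1 in WT and 19.7, 41.1, 14.4, 22.5 and 5.1 in LFABP-/- iBAT (4.64 ± 0.45, adjusted p = 0.000103). Both were near or at the lowest printed value in WT and above 5 in every LFABP-/- library. The livers of the same LFABP-/- mice held 8.1 to 14.6 for Fgf21 and 26.6 to 141.9 for Gdf15, so the liver share accounted for a median of 0.277% and 2.39% of the iBAT values. Mthfd2, an enzyme of mitochondrial one-carbon metabolism, was 1.4, 1.3, 1.2, 0.9 and 0.9 in WT and 9.2, 22.8, 10.9, 11.9 and 12.8 in LFABP-/- iBAT (3.04 ± 0.21, adjusted p = 3.23e-05). LFABP-/- replicate 2 held the highest value of Fgf21, Gdf15 and Mthfd2 alike.

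Atf4 itself was 56.7, 56.1, 54.3, 51.9 and 64.9 in WT and 206.5, 195.6, 138.5, 148.7 and 163.3 in LFABP-/- iBAT, a 2.96-fold rise (1.57 ± 0.11, adjusted p = 3.46e-05). The related factor Atf5 rose 2.70-fold (1.43 ± 0.14) and the pseudokinase gene Trib3 2.88-fold (1.52 ± 0.22). Genes of amino acid supply rose as well, with log2 fold changes of 1.80 ± 0.29 for the transporter subunit Slc3a2, 1.64 ± 0.30 for the serine synthesis enzyme Psat1 and 0.93 ± 0.11 for the asparagine synthetase Asns. Ddit3, which encodes the stress factor CHOP, rose by 0.90 ± 0.14. Exceptions were Nupr1, a stress-induced chromatin protein, which was lower (-0.69 ± 0.12, adjusted p = 0.00192), and Chac1, a glutathione-degrading enzyme, which was not called (-0.80 ± 0.79, adjusted p = 0.447). The call for Nupr1 ended within G32 and in the joint fit of the 3 tissues. Without LFABP-/- replicates 1 to 3, 14 ATF4 targets were higher and 1 lower, within G30 16 and 1, and within G32 15 and 2. Chaperones of the endoplasmic reticulum and its unfolded protein response showed 4 higher (19.05%) and 2 lower (9.52%) of 21 tested. Among all genes 22.3% were higher and 25.5% lower, so the share of chaperones that were higher was near that of all genes. The median of the chaperone list was -0.02, and its counts without LFABP-/- replicates 1 to 3 were the same.

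The promoters of 20 ATF4 targets, 250 bases before the RefSeq start (GRCm38.p6), were searched on both strands for TGATGNAA, the core of the C/EBP-ATF element that ATF4 can bind. It was found in 4 (Asns, Chac1, Fgf21 and Nupr1), in 954 of all 27025 promoters (3.53%) and in 1.86% of the promoters of genes tested in iBAT. The promoter of Fgf21 (chr7:45615491-45615740, minus strand) is shown as the gene with the largest rise, with 30 bases each of Asns (chr6:7693214-7693243, minus strand), which rose, and Nupr1 (chr7:126625562-126625591, minus strand), which fell. All are written in the direction of the gene, and capitals mark the match, which lies on the opposite strand in Fgf21 and Nupr1.
Fgf21: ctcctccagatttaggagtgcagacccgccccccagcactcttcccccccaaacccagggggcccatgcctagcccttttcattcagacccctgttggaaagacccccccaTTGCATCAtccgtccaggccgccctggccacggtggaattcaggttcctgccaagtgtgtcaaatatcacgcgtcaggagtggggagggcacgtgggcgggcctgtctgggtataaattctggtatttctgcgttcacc
Asns: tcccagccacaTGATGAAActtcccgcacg
Nupr1: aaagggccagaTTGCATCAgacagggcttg
The match lay 139 to 132 bases before the start in Fgf21, 23 to 16 in Asns and 110 to 103 in Nupr1. It was present in 2 of the 16 targets that rose. By the Ensembl annotation of the deposited values, all 250 bases searched for Nupr1 and 45 of those for Asns lie within the gene.

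Most tested transcripts of fatty acid synthesis and of cholesterol synthesis were higher. Of 25 genes of de novo lipogenesis tested, 16 were higher and 2 lower, with a median of 0.75. Scd2, a stearoyl-CoA desaturase, was 46.2, 22.1, 29.3, 23.1 and 18.9 in WT and 213.8, 129.9, 151.2, 104.0 and 133.5 in LFABP-/- iBAT, a 5.29-fold rise (2.40 ± 0.25, adjusted p = 0.000148). Acly, the enzyme that makes cytosolic acetyl-CoA, was 534.3, 484.4, 467.7, 338.9 and 245.1 in WT and 1512.0, 738.8, 816.3, 1038.2 and 907.8 in LFABP-/- iBAT (1.28 ± 0.24, adjusted p = 0.00283). Neither gene overlapped between genotypes. The malic enzyme gene Me1 rose equally (1.28 ± 0.25). Fasn, the fatty acid synthase, was not called at 2208 ± 533 in WT and 2946 ± 1025 in LFABP-/- iBAT (0.39 ± 0.23, adjusted p = 0.21). Acacb, which makes the malonyl-CoA that restrains fatty acid oxidation, and Mlxipl, the carbohydrate-responsive factor ChREBP, were lower (-0.41 ± 0.12 and -0.62 ± 0.18). Fads1 and Fads2, the desaturases of polyunsaturated fatty acids, were called higher but had liver parts of 56.4% and 77.3%, and LFABP-/- replicate 5, at 3.7 and 3.9, lay at the WT levels. Their calls ended after the subtraction and without LFABP-/- replicates 1 to 3, that for Acacb ended within G30 and in the joint fit, and that for Mlxipl within G32. In de novo lipogenesis, 14 genes were higher and 3 lower after the liver share was subtracted, and 9 and 2 of 23 tested without LFABP-/- replicates 1 to 3. Over all genes these fits called 2282 of 11418 higher and 3188 lower, and 1002 of 11559 higher and 1863 lower.

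Of 24 genes of cholesterol synthesis and SREBP2 targets tested, 15 (62.5%) were higher and 0 lower, beside 22.3% and 25.5% of all genes. The median was 0.51. Hmgcs1, at the start of the pathway, was 98.0, 78.2, 76.6, 66.8 and 64.1 in WT and 169.3, 171.5, 168.0, 190.7 and 126.9 in LFABP-/- iBAT, a 2.15-fold rise without overlap (1.11 ± 0.13, adjusted p = 0.000264). Fdps, which makes farnesyl diphosphate, rose by 1.04 ± 0.14 and the squalene epoxidase gene Sqle by 1.02 ± 0.17. The sterol sensor partner Insig1 rose by 0.54 ± 0.15, a call that ended in the joint fit of the 3 tissues (adjusted p = 0.15), within G32 and without LFABP-/- replicates 1 to 3. The count for cholesterol synthesis and SREBP2 targets was 9 higher and 1 lower without LFABP-/- replicates 1 to 3.

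Handling of fatty acids and glucose shifted gene by gene. Fatty acid uptake and acyl-CoA synthetases had 15 higher (53.6%) and 7 lower (25.0%) of 28 tested, beside 22.3% and 25.5% of all genes. These counts became 7 and 5 without LFABP-/- replicates 1 to 3. The cytosolic carriers of brown fat rose: Fabp3 from 1728 ± 283 to 2735 ± 428 (0.66 ± 0.14), Fabp5 from 22.4 ± 5.44 to 45.4 ± 8.26 (1.02 ± 0.20) and Fabp4 from 2709 ± 145 to 3152 ± 334 (0.21 ± 0.08, adjusted p = 0.055, groups overlapping). Lpl, the lipase that frees fatty acids from plasma triglyceride, rose by 0.50 ± 0.14, and Plin2, a coat protein of lipid droplets, rose 2.77-fold (1.47 ± 0.21, adjusted p = 0.000592). Acot2, a mitochondrial thioesterase, rose 3.87-fold (1.95 ± 0.30). In the opposite direction, the fatty acid transporter gene Slc27a1 fell from 88.2 ± 15.9 to 48.3 ± 8.1 (-0.86 ± 0.15) and Acss3, a mitochondrial short-chain acyl-CoA synthetase, fell 2.21-fold (-1.14 ± 0.12). The call for Lpl ended in the joint fit, within G32 and without LFABP-/- replicates 1 to 3, and those for Fabp3 and Fabp4 in the joint fit. That for Fabp4 also ended within G32, without LFABP-/- replicates 1 to 3 and in other settings. Hexokinases, glycolysis and glucose uptake had 14 higher (42.4%) and 5 lower (15.2%) of 33 tested, and 7 and 2 without LFABP-/- replicates 1 to 3. The fructose transporter gene Slc2a5 (1.49 ± 0.36) and the lactate transporter gene Slc16a1 (1.18 ± 0.16) were higher, the former without a call within G30. Slc2a4, the insulin-responsive glucose transporter, stood at 179.8 ± 12.8 in WT and 179.9 ± 24.7 in LFABP-/- iBAT (-0.01 ± 0.10, adjusted p = 0.958).

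Single genes among the secreted factors and transcription factors of the adipocyte fell by large amounts. As a group, adipokines and batokines had 8 higher and 9 lower of 29 tested (27.6% and 31.0%, beside 22.3% and 25.5% of all genes), and 5 and 6 without LFABP-/- replicates 1 to 3. Besides Cfd, adiponectin (Adipoq) fell from 770.5 ± 50.9 to 535 ± 72.5 (-0.53 ± 0.09), resistin (Retn) from 29.4 ± 11.8 to 10.7 ± 1.37 (-1.33 ± 0.25) and Nampt from 104 ± 17 to 62.3 ± 5.01 (-0.73 ± 0.11), each without overlap. Leptin (Lep) was 10.3 ± 5.34 and 17.2 ± 10.8 (0.68 ± 0.44, adjusted p = 0.247). Ptgds, a prostaglandin D synthase, rose from 10.9 ± 5.68 to 47.4 ± 10.5 (2.27 ± 0.44). The adipogenic transcription factors had 5 higher (19.2%) and 11 lower (42.3%) of 26 tested. Their median was -0.30, which was 0.02 within G30 and -0.28 within G32. Without LFABP-/- replicates 1 to 3, 2 were higher and 8 lower. Klf15, a glucocorticoid-induced factor of amino acid and lipid metabolism, was 28.9, 36.9, 31.8, 57.1 and 45.1 in WT and 5.6, 8.0, 7.8, 6.5 and 15.6 in LFABP-/- iBAT, 4.54-fold lower (-2.18 ± 0.27, adjusted p = 0.000281). Stat5a, which relays growth hormone and prolactin signals, fell 3.16-fold (-1.66 ± 0.17) and Cebpa 1.88-fold (-0.91 ± 0.15). Pparg, the master regulator of adipocytes, was 118 ± 14.3 and 120.0 ± 17.2 (0.02 ± 0.11, adjusted p = 0.885), and Cebpb rose by 0.74 ± 0.16. The metallothionein genes Mt1 and Mt2, induced by glucocorticoids and metals, fell from 219 ± 22 to 93.4 ± 29.3 and from 121 ± 19.7 to 41.2 ± 24.2 (-1.27 ± 0.17 and -1.72 ± 0.35). In the same list of 20 glucocorticoid-induced genes and metallothioneins, 6 were higher and 8 lower, and Dusp1, a phosphatase that is also an early response gene, rose by 1.36 ± 0.33. That list had 3 higher and 8 lower without LFABP-/- replicates 1 to 3. The calls for Retn, Mt2 and Dusp1 ended within G32 and that for Adipoq in the joint fit.

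Clock genes formed another group with large differences. The core factor BMAL1 (gene Arntl) drives the Per genes and the PAR-domain factors Dbp, Tef and Hlf through the day, and NFIL3 acts against these factors on the same sites. Of 18 circadian clock genes tested, 4 (22.2%) were higher and 11 (61.1%) lower, beside 22.3% and 25.5% of all genes. The share higher was thus that of all genes, and the median was -0.63. Arntl was 0.6, 0.9, 0.7, 0.9 and 1.1 in WT and 7.7, 5.5, 4.8, 4.1 and 3.1 in LFABP-/- iBAT (2.01 ± 0.20, adjusted p = 0.000129). Nfil3 was 11, 10.3, 9.9, 21.5 and 19.4 in WT and 71.9, 50.3, 36.3, 33.2 and 29 in LFABP-/- iBAT (1.58 ± 0.29, adjusted p = 0.0025). Per3 was 10.4, 8.4, 10.6, 15.1 and 10.2 in WT and 1.4, 2.2, 2.9, 3.2 and 3.4 in LFABP-/- iBAT (-1.90 ± 0.21, adjusted p = 0.000185). No library of one genotype reached the range of the other in these 3 genes. Dbp was 54.3, 31.5, 43.6, 72.9 and 55.2 in WT and 4.7, 7.7, 12.7, 13.3 and 24.7 in LFABP-/- iBAT (-2.13 ± 0.38, adjusted p = 0.0021). Tef (-1.23 ± 0.16), Hlf (-1.05 ± 0.17) and Per2 (-1.10 ± 0.27) fell as well, whereas Per1 (-0.32 ± 0.26, adjusted p = 0.343) and Nr1d1 (0.14 ± 0.16, adjusted p = 0.515) were not called. Noct, a rhythmic phosphatase gene, rose 4.19-fold (2.07 ± 0.24). Without LFABP-/- replicates 1 to 3, 2 circadian clock genes were higher and 7 lower, and Per2 was no longer called. The clock time of tissue collection for each mouse is not given in the labels, so genotype and time of day cannot be told apart.

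**Figure D3:**
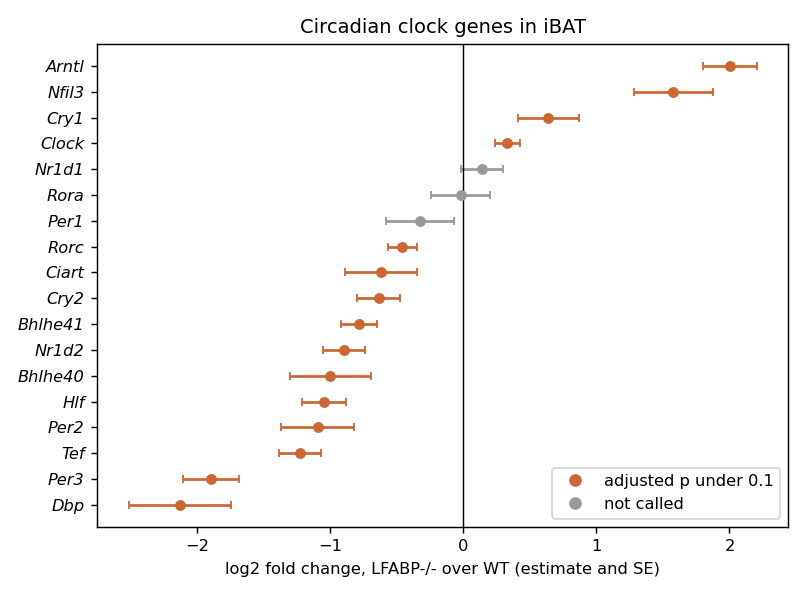
Log2 fold change (LFABP-/- minus WT, 5 mice each) ± standard error of the 18 clock genes in iBAT, called genes in orange and others in grey. Arntl lies at 2.01 and Nfil3 at 1.58 on the higher side, and Dbp at -2.13 and Per3 at -1.90 on the lower side.

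Promoters of 15 tested clock genes were searched for the E-box CACGTG, which BMAL1 binds with CLOCK, and the D-box TTATGTAA of the PAR-domain factors and NFIL3, again over 250 bases on both strands. The E-box was in 5 of them (Bhlhe41, Ciart, Cry1, Per1 and Tef), in 6.05% of all promoters and in 8.81% of those of genes tested in iBAT. The D-box was in 1 (Per3), in 0.862% of all promoters and in 0.463% of those of tested genes. The promoter of Per3 (chr4:151044666-151044915, minus strand), which holds the D-box in 2 places, and 30 bases of Tef (chr15:81802534-81802563, plus strand) are shown because both genes fell, and capitals mark the matches.
Per3: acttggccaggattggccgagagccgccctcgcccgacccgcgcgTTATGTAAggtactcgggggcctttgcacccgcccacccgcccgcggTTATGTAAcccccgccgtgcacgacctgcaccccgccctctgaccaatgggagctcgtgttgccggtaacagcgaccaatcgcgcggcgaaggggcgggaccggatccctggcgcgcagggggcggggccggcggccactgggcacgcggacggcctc
Tef: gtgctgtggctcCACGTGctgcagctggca
The E-box of Tef lay 127 to 122 bases before its start, and the D-boxes of Per3 205 to 198 and 158 to 151. By the Ensembl annotation of the deposited values, all 250 bases searched for Tef lie within the gene.

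Lower genes outnumbered higher ones in the vascular, stromal and Wnt lists, by smaller amounts. In bulk tissue, fewer cells of a type and less RNA per cell cannot be told apart. Of 20 angiogenic factors and endothelial receptors tested, 13 (65.0%) were lower and 1 (5.0%) higher, beside 25.5% and 22.3% of all genes. The median was -0.45. Flt1, a VEGF receptor, was 19.2, 19.3, 17.6, 18.5 and 15.7 in WT and 10.9, 10.9, 12.0, 12.5 and 10.2 in LFABP-/- iBAT (-0.65 ± 0.08, adjusted p = 0.000225). Vegfa fell from 175 ± 23.9 to 125 ± 14.9 (-0.48 ± 0.11), with 1 WT library inside the LFABP-/- range, and the Notch ligand Dll4 from 9.32 ± 1.98 to 4.30 ± 1.94 (-1.10 ± 0.26). Of 17 genes of the Wnt pathway, 10 (58.8%) were lower and 0 higher. Among the lower were the receptors Fzd4 (-0.63 ± 0.12) and Fzd7 (-0.96 ± 0.21) and the feedback inhibitor Axin2 (-0.64 ± 0.15). Adipocyte progenitor and stromal genes had 9 lower (45.0%) and 1 higher (5.0%) of 20, and the proteoglycan gene Dcn fell by 0.79 ± 0.23 on the log2 scale. Endothelial markers had 6 lower (31.6%, beside 25.5% of all genes) and 0 higher of 19, smooth muscle and pericyte markers 6 (54.5%) and 0 of 11, and nerve and Schwann cell markers 5 (62.5%) and 0 of 8. Over all genes the lower count dropped from 2961 of 11614 to 1863 of 11559 without LFABP-/- replicates 1 to 3. In these lists it dropped to 5 for angiogenic factors and endothelial receptors, 3 for the Wnt pathway and 2 for adipocyte progenitor and stromal genes. It was 3 each for endothelial markers and for smooth muscle and pericyte markers and 2 for nerve and Schwann cell markers. The calls for Vegfa, Axin2, Dcn and Fzd7 ended without those replicates, and those for Vegfa, Axin2, Dcn and Dll4 within G32.

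Components of large complexes differed little in size but often in the same direction. Proteasome subunits had 23 higher and 0 lower of 37 tested (median 0.19), and mitochondrial ribosomal proteins 39 higher and 7 lower of 78 (median 0.13). Cytosolic ribosomal proteins had 2 higher (2.44%) and 31 lower (37.8%) of 82 (median -0.13). Nuclear genes of the respiratory chain had 8 higher (9.76%) and 20 lower (24.4%) of 82, so the share lower was near that of all genes. The median of this list was -0.05 and became 0.00 under median-ratio scaling, where 18 were higher and 14 lower. The counts changed with the libraries used. Without LFABP-/- replicates 1 to 3 they were 10 and 0 for proteasome subunits, 9 and 3 for mitochondrial ribosomal proteins, 1 and 1 for cytosolic ribosomal proteins, and 1 and 11 for respiratory chain subunits, nuclear genes. Cytosolic ribosomal proteins had 3 higher and 3 lower within G30 and 1 and 40 within G32. Structural and ribosomal RNA-like transcripts, which poly(A) selection should remove, had 8 higher (66.7%) and 0 lower of 12 (median 0.85). Without LFABP-/- replicates 1 to 3 they had 7 and 0.

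**Figure D4:**
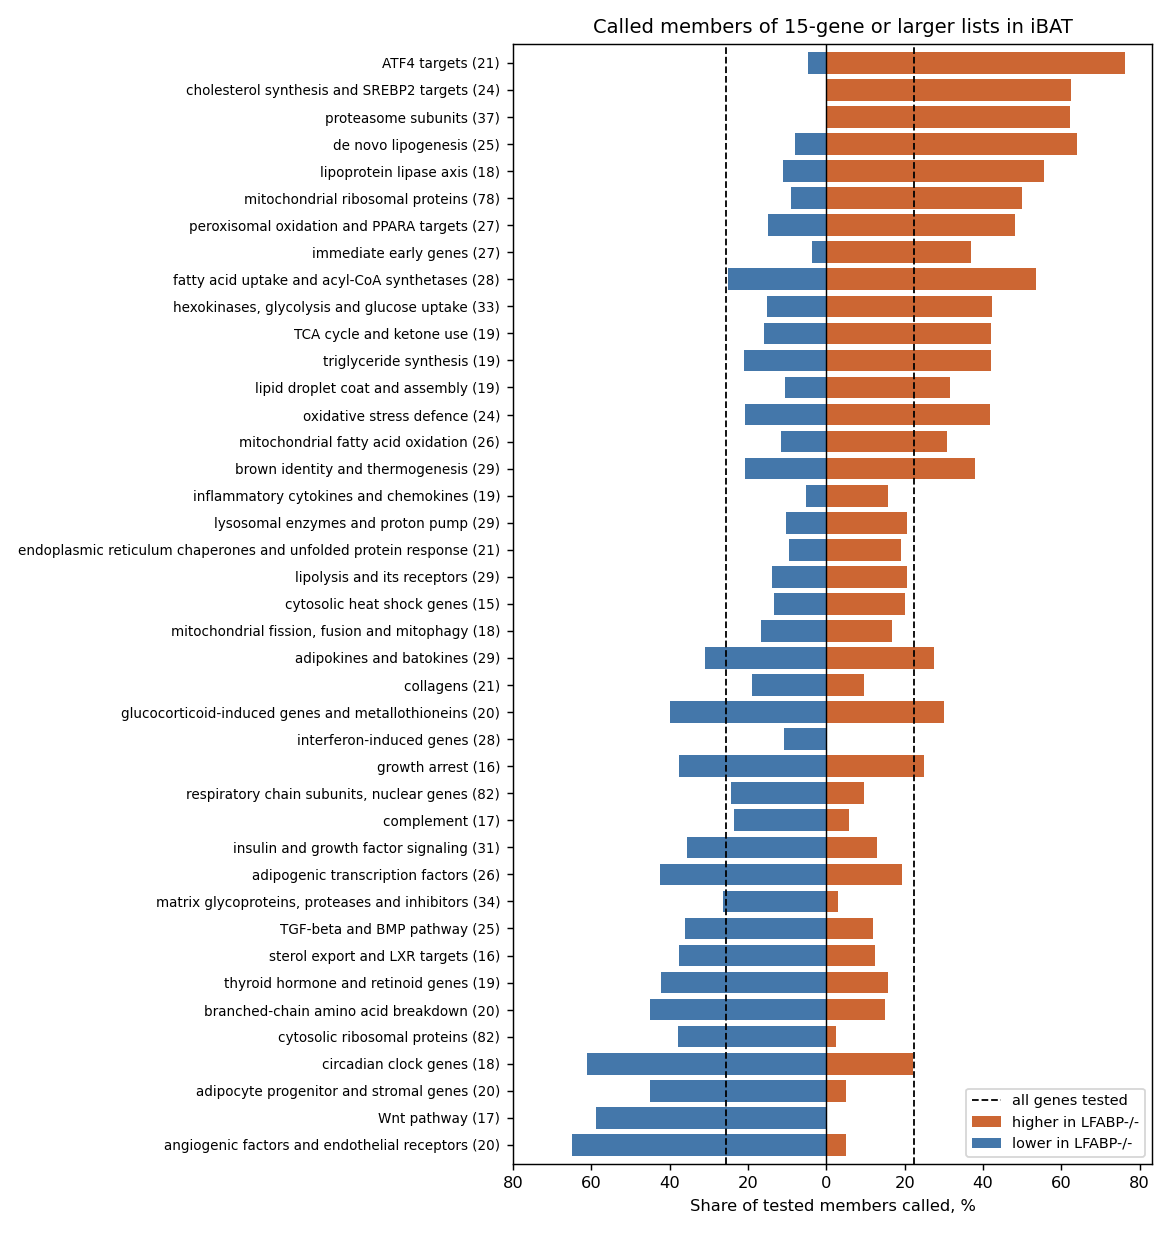
Gene lists with at least 15 tested members, by the percentage of members higher (right) and lower (left) in LFABP-/- iBAT, with the number tested in brackets. ATF4 targets (16 higher, 1 lower of 21) and circadian clock genes (4 higher, 11 lower of 18) stand beside 22.3% higher and 25.5% lower among all genes.

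Among the 15 largest decreases by the naming rule, Cyp2b10, a cytochrome P450 induced by xenobiotics, was 45.0, 20.6, 81.9, 88.6 and 8.4 in WT and 2.5, 1.5, 1.1, 3.0 and 6.0 in LFABP-/- iBAT (-3.63 ± 0.64, adjusted p = 0.00187). Car3, a carbonic anhydrase abundant in adipocytes, was 1142.1, 1079.0, 1439.0, 1973.1 and 1817.7 in WT and 143.3, 166.1, 218.5, 305.1 and 429.9 in LFABP-/- iBAT, 6.21-fold lower (-2.63 ± 0.30, adjusted p = 0.000207). Gpx3, a secreted glutathione peroxidase, was 1358.3, 1470.6, 1764.0, 1705.3 and 1185.1 in WT and 334.0, 343.8, 359.9, 524.9 and 562.9 in LFABP-/- iBAT (-1.84 ± 0.17, adjusted p = 9.99e-05). All 3 were separated between the genotypes, and Cyp2b10 also spread widely within WT and was not called within G32. The others, besides Cfd, Klf15, Dbp and Mt2, were Fbxo31, Etfbkmt, Aspg, Tppp, Irs3, Mtmr14, Klhdc7a and Pdcd4, with log2 fold changes from -1.87 to -1.57. Irs3 encodes an insulin receptor substrate of rodent adipocytes and Pdcd4 an inhibitor of translation initiation.

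Among the largest increases with a liver part under 10%, Alas1, the rate-limiting enzyme of heme synthesis, was 33.5, 32, 43.4, 68.9 and 47.5 in WT and 319.1, 320.6, 261.7, 262.3 and 182.4 in LFABP-/- iBAT, a 6.04-fold rise (2.59 ± 0.22, adjusted p = 6.18e-05). Tubb2a, a β-tubulin, was 14.8, 12.5, 15.7, 12.3 and 13.1 in WT and 138.3, 69.6, 93.9, 78.4 and 68.7 in LFABP-/- iBAT (2.63 ± 0.18, adjusted p = 3.23e-05). Both were far above the WT range in every LFABP-/- library. Dhrs9, a retinol dehydrogenase, rose from 10 ± 6.83 to 64.2 ± 16.5 (2.84 ± 0.41), the kinase gene Plk3 from 3.58 ± 0.782 to 25.8 ± 16.5 (2.49 ± 0.38) and Bc1, a short noncoding RNA, from 165 ± 43.5 to 766 ± 168 (2.22 ± 0.20).

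Whether the genotype difference in iBAT differed from that in the other tissues of the same mice was tested by fitting the 30 libraries together, with a random effect for the mouse. Of 15564 genes, the difference was higher in iBAT than in liver for 1601 (10.3%) and lower for 752 (4.83%). Against iWAT it was higher for 777 (4.99%) and lower for 960 (6.17%). The count higher than in iWAT became 491 and 433 without WT mice 2 and 3 and 430 and 455 without LFABP-/- mice 2 and 3. The lower count became 558, 622 and 1448 without WT mice 2, 3 and 4 and 538 without LFABP-/- mouse 3. In that fit 4411 genes (28.3%) were called for genotype in iBAT, 1335 (8.58%) in liver and 950 (6.1%) in iWAT. Npr3 rose by 3.04 in iBAT, 0.11 in liver (adjusted p = 0.924) and 0.62 in iWAT (adjusted p = 0.143), and the iBAT difference exceeded the liver one by 2.94 ± 0.32 and the iWAT one by 2.42 ± 0.33. Acsl5 exceeded both by 1.74 ± 0.20 and 1.66 ± 0.20, and Hk1 by 2.01 ± 0.26 and 1.66 ± 0.26. Cfd differed from liver by -4.22 ± 0.53 and from iWAT by -2.69 ± 0.53. These 4 markers thus differed in iBAT beyond the differences in both other tissues. In liver, Npr3 stood at only 0.5 to 1.0 and Hk1 at 0.8 to 2.2. So near the added 0.5, a liver difference has little room to show. Ucp1 did not pass either test, with an iBAT difference of 0.50 and differences between tissues of 1.41 ± 1.32 against liver and -2.23 ± 1.32 against iWAT. The iWAT library of LFABP-/- replicate 2 stood apart, with Ucp1 at 962.3 against 5.5 to 32 in the other LFABP-/- iWAT libraries, and it held 85.6 for Elovl3 and 38.5 for Dio2. Without it the difference of Ucp1 against iWAT was -1.02 ± 0.97 (adjusted p = 0.609), and 690 genes were higher and 1012 lower in iBAT than in iWAT. The iWAT library of LFABP-/- replicate 1 held 196.1 for Fabp1 and 1237.3 for Alb. The other LFABP-/- iWAT libraries held 0.2 to 0.9 and 68.0 to 93.8, and WT iWAT 1.9 to 23.9 and 103.2 to 322.2. The source was not tested. Without LFABP-/- mouse 1, 692 genes were higher and 1127 lower in iBAT than in iWAT.

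Of 25 ATF4 targets, 13 had a higher difference in iBAT than in liver and 10 than in iWAT, and 0 were lower. Among all genes, 10.3% were higher and 4.83% lower in iBAT than in liver, and 4.99% and 6.17% than in iWAT. Fgf21 exceeded the liver difference by 5.29 ± 0.68 and the iWAT difference by 3.56 ± 0.68, although liver held more Fgf21 than iBAT in WT mice. Atf4 exceeded them by 1.45 ± 0.19 and 1.02 ± 0.19. Of 18 clock genes, 4 were higher and 9 lower in iBAT than in liver, and 2 were higher and 6 lower than in iWAT. Cholesterol synthesis had median differences of 0.51 in iBAT and 0.73 in iWAT. Between these depots 0 of 25 genes differed in either direction, beside 4.99% higher and 6.17% lower among all genes. In 25 genes a count of 0 is near those shares and does not show that the depots were alike. The metallothioneins fell in iBAT and rose in iWAT, where the difference was 1.08 for Mt1 and 1.75 for Mt2, and the iBAT minus iWAT difference was -2.34 ± 0.44 and -3.48 ± 0.61. Esrra, a nuclear receptor of mitochondrial genes, was 1.61 higher in iWAT and 0.18 in iBAT (difference -1.43 ± 0.16), and its iBAT call ended in this fit and in other settings.

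**Figure D5:**
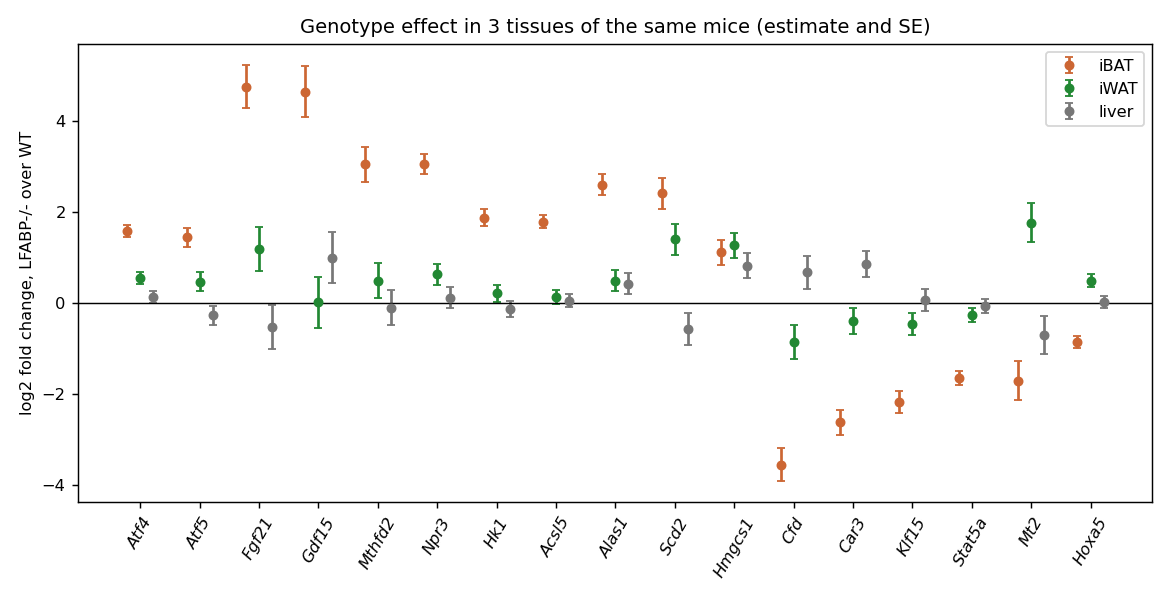
Log2 fold change (LFABP-/- minus WT) ± standard error of selected genes in iBAT, liver and iWAT of the same mice, from the fit of all 30 libraries. Npr3 lies at 3.04 in iBAT, 0.11 in liver and 0.62 in iWAT, and Fgf21 at 4.74, -0.54 and 1.18.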

How the data were processed

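RNA-seq libraries of iBAT, liver and iWAT from the same 5 WT and 5 LFABP-/- male mice were used, and groups were taken from the labels. The authors selected poly(A) RNA, mapped the reads in CLC Genomics Workbench (GRCm38, Ensembl annotation) and deposited a single table with 41549 genes. Its columns are named RPKM, but each library sums to between 999967.3 and 999996.4, so the deposited values were read as TPM. They are rounded to 1 decimal and come without counts, so depth is unknown and no counting error is given.

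In iBAT, genes with a mean of at least 1 were transformed to log2(value + 0.5) and compared between genotypes by limma 3.58.1, run in R 4.3.3 (eBayes with intensity trend, two-sided, Benjamini-Hochberg, called at an adjusted p under 0.1). Differences between tissues came from fitting the 30 libraries jointly, with a random effect for the mouse estimated by statmod 1.5.0. Gene lists and members were chosen with earlier results of these data known, so their counts are descriptions. The liver share is the median, over hepatocyte markers above 100 in the mouse's own liver, of the iBAT value as a percentage of the liver value.

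Genes named were Fabp1 and Nnt, the markers Ucp1, Cfd, Npr3, Hk1 and Acsl5, the 15 largest increases and decreases of called genes whose mean exceeded 20 in a genotype and whose genotypes did not overlap, called members of each list and up to 4 with the smallest p, and the 10 with the smallest p and a mean above 20 in iBAT for each difference between tissues. Some genes meeting the rule are left out of the text. Any other gene was picked with its values in view.

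Alternatives covered the pseudocount, the filter, scaling, the intensity trend, library weights, a replicate block, the library name prefix, 1 fit of all libraries, muscle and hepatocyte markers as covariates, the threshold and each library left out. Replicate numbers join different animals of the 2 genotypes, so they do not pair mice. Promoter sequences came from RefSeq (GRCm38.p6). Tables were handled with pandas 2.3.3 and NumPy 2.4.6 under Python 3.11.15, and plots were drawn with matplotlib 3.10.9.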

Additional observations from a re-analysis of the deposited data

Results flagged for a closer look

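Single libraries stood apart from the others of their group in 8 of 252 groups of 5 examined, where chance alone gives about 1 in 20. Among LFABP-/- libraries these were Fgf21 in replicate 2 (59.4), Npr3 in replicate 4 (105.8) and Irf4 in replicate 4 (6.0). Among WT libraries they were Ptgds in replicate 5 (2.3), Fabp5 in replicate 4 (13.2), the linker histone gene H1f0 in replicate 4 (101.3), Mlxipl in replicate 5 (63) and Vegfa in replicate 5 (134.4). In Irf4 the value of LFABP-/- replicate 4 lay within the WT range of 2.6 to 9.2.

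Genotype differences in iBAT departed from those in liver, by the test of the difference itself, for Npr3 (2.94), Acsl5 (1.74), Akirin1 (1.39), Fgf21 (5.29), Atf4 (1.45), Hk1 (2.01) and Pak1ip1 (1.18), which were higher in iBAT, and for Car3 (-3.48), Cfd (-4.22) and Mtmr14 (-1.41), which were lower. Against iWAT the difference in iBAT was higher for Acsl5 (1.66), Npr3 (2.42) and Alas1 (2.11). It was lower for Esrra (-1.43), Mtmr14 (-1.54), the ribosomal RNA gene n-R5-8s1 (-2.28), the developmental factor Hoxa5 (-1.35), Coq10a (-0.71), H1f0 (-0.80) and the DNA repair gene Xrcc6 (-1.27).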

How the results depend on the processing

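The iBAT counts of 2595 higher and 2961 lower genes, with 46.7% of called genes higher, became 863 and 528 (62%) with a filter at a mean of 20, 108 and 340 (24.1%) with hepatocyte markers as a covariate, 1002 and 1863 (35%) without LFABP-/- replicates 1 to 3, 2602 and 1908 (57.7%) in the G30 libraries and 985 and 1899 (34.2%) in the G32 libraries. The latter 3, the subtraction of the liver share and the fit without the iWAT library of LFABP-/- replicate 2 were chosen after seeing the data. The mean log2 level of the hepatocyte markers did not overlap between the genotypes, so that fit has little information left on genotype. In it, 27 of 115 named genes kept their calls. Removing the liver share kept 101 of 113, leaving out LFABP-/- replicates 1 to 3 kept 89 of 114, and the fit of all 30 libraries kept 102 of 115. With each library left out in turn, higher genes ranged from 2225 to 3016 and lower genes from 2537 to 2993, and 109 of 115 named genes kept their calls throughout. Median-ratio scaling gave 55.7% higher and rescaling without mitochondrial and the top 10 genes 43.3%. The replicate block gave 2634 higher and 3027 lower genes. Same-numbered mice are different animals, and the correlations of their deviations were 0.38, -0.187, -0.0154, -0.53 and 0.511.

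Differences against liver that were lower in iBAT numbered 1329 under rescaling without mitochondrial and the top 10 genes and 1360 under median-ratio scaling. Differences against iWAT numbered 1581 higher under median-ratio scaling, and 471 higher and 583 lower at an adjusted p under 0.05. Without each mouse in turn, 1104 to 1753 genes were higher and 534 to 791 lower than in liver, and 430 to 993 were higher and 538 to 1448 lower than in iWAT. Directions turned with hepatocyte markers as a covariate for Fads1 (-0.36), Fads2 (-0.25), Alb (-0.11), Apoa1 (-0.10), Serpina1c (-0.16), Mup3 (-0.069) and Serpina3k (-0.024), and after subtraction of the liver share for Fads2 (-0.29), Mup3 (-0.44) and Mup22 (-0.78). The cause was not tested. The values have 1 decimal, which limits genes near 0 such as Fgf21 and Gdf15 in WT.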

Other observations

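Other gene groups showed smaller or mixed differences in LFABP-/- iBAT, beside 22.3% higher and 25.5% lower among all genes. Enzymes of branched-chain amino acid breakdown, a fuel pathway of brown fat, had 3 higher and 9 lower of 20 tested (median log2 fold change -0.13). Genes of insulin and growth factor signaling had 4 higher and 11 lower of 31, and genes of the TGF-beta and BMP pathway 3 higher and 9 lower of 25. Genes of oxidative stress defence had 10 higher and 5 lower of 24, and peroxisomal oxidation and PPARA targets 13 higher and 4 lower of 27 (median 0.28). Inflammatory cytokines and chemokines had 3 higher and 1 lower of 19, interferon-induced genes 0 higher and 3 lower of 28, and macrophage markers 1 and 1 of 15. Collagens had 2 higher and 4 lower of 21.

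In natriuretic peptide signaling, 1 gene was higher (11.1%) and 3 were lower (33.3%) of 9 tested, beside 22.3% and 25.5% of all genes. While the clearance receptor gene Npr3 rose, Npr1, which encodes a receptor that makes cGMP, fell from 25.1 ± 3.04 to 17.9 ± 2.29 (SD, n = 5; -0.48 ± 0.11, limma adjusted p = 0.00655), with overlapping groups. The call for Npr1 ended within G32.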
